A study of Drosophila melanogaster with 18 samples.

Results

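Cytochrome P450 enzymes of clan 3, the branch of the insect P450 superfamily that holds the Cyp6, Cyp9, Cyp28, Cyp308, Cyp309, Cyp310 and Cyp317 families of Drosophila melanogaster, were followed in whole fly heads after no, 1 or 5 exposures to ethanol vapor. A gene was taken as a member when its probe set carried exactly 1 gene symbol and that symbol belonged to one of those families. That rule uses no expression values, but the members were chosen with earlier results of these data known. The rule gave 37 genes of the 10845 that the array names with a single symbol. They were read by 39 probe sets; Cyp9b2 and Cyp9f2 each had 2, of which the one with the higher mean over the 18 arrays stands for the gene.

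Insect P450s of clan 3 sit in the membrane of the endoplasmic reticulum, where P450 reductase, and for some reactions cytochrome b5, hand them the electrons with which they oxidise small lipophilic molecules. Several of them clear insecticides, plant alkaloids and drugs, and some rise when a fly meets phenobarbital or caffeine, an induction in which the transcription factor CncC, encoded by cnc, and its inhibitor Keap1 take part. Much of this chemistry takes place in fat body, midgut and Malpighian tubule, and heads hold fat body too.

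All flies were Canton-S, a wild-type laboratory strain, aged 2 to 5 days, and each sample was RNA from about 60 heads. Naive flies had 50 min of humidified air (6 samples). Flies of the single-exposure group had the same air and then 50% ethanol vapor for 40 min (6 samples), and flies of the five-exposure group had the air and then 5 exposures of that kind (6 samples). No group kept in air for as long as either ethanol schedule was analysed here, and the labels give neither the sex of the flies nor the time between exposures.

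The arrays differed little in scale, with medians of 125.4 to 129.3 intensity units, and each array's mean correlation with the other arrays of its group lay between 0.982 and 0.992. The lowest value was that of naive replicate 5, and the next lowest was 0.988 (single-exposure replicate 2). The sample titles carry codes whose numbers run consecutively through the groups, and the labels do not say whether these follow the order of processing. Among markers of the cell types a head sample could hold, several lists had no gene called in any comparison. These were oenocyte (3 tested), midgut (9), Malpighian tubule (4), neuron (3), glia (4), testis (1) and ovary (2). With so few genes, the absence of calls does not show that these cell types were unchanged. The neuronal marker elav and the glial marker nrv2 lay below the filter on low values. So did salt (Malpighian tubule), betaTub85D, dj and can (testis), and osk and vas (ovary). Of 12 fat body markers, 2 were called higher and 1 lower after a single exposure, and 5 higher and 0 lower after 5 exposures. Those called after 1 exposure were Lsd-1 (3.93-fold), Lsp2 (1.43-fold) and fit (0.398-fold). The summed intensity of the fat body markers ran from 45015 to 48715 in naive, from 47719 to 49124 in single-exposure and from 46236 to 54584 in five-exposure samples. Most of this sum came from Yp1, Yp2 and Yp3 (naive means 11546, 11312 and 10293), which were not called in any comparison. Of 8 muscle markers, 6 were called lower after 5 exposures and none after 1. Of 5 photoreceptor markers, 1 was called higher and 1 lower after 5 exposures and none after 1, and of 6 haemocyte markers 1 was called higher and 2 lower after 5. The control probe sets for 18S rRNA had a log2 ratio of 3′ over 5′ signal of -2.92 ± 0.44 in naive, -1.99 ± 0.23 in single-exposure and -2.13 ± 0.60 in five-exposure samples (SD, n = 6 each), and the naive and single-exposure ranges did not overlap. The mRNA controls differed less between the groups. Their mean log2 ratios, in the same order of groups, were 2.01, 2.18 and 2.21 for ACTIN. For GAPDH they were 1.30, 1.30 and 1.30, and for eIF-4a 0.54, 0.57 and 0.51. The part of these ratios, or of these markers, in the results on P450 genes was not tested. In bulk heads, fewer cells of a type and less RNA per cell cannot be told apart.

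Of the 37 genes, 29 passed the filter on low values (a mean log2 intensity of at least 6.42, or 85.8 units, over all arrays), and none of these had an array at the floor of 57.8 units. In 27 of the 29 the mean of every group was above the filter. The exceptions were Cyp309a2, whose five-exposure mean lay below it, and Cyp6t1, whose single-exposure mean did. The 8 genes left out were Cyp28d2, Cyp310a1, Cyp6a14, Cyp6a19, Cyp6a23, Cyp6t3, Cyp9h1 and Cyp317a1, with single-array intensities from 29.8 to 92.4. Cyp6t3, which takes part in ecdysone synthesis, is among them. Cyp6a14, Cyp6a19 and Cyp9h1 lay below the floor on all 18 arrays. None of the 8 was called in any comparison when they were tested without the filter. That fit kept the floor, so these last 3 genes had 1 value on all arrays and could not be called. Cyp28d2 was at the floor on 17 of the 18 arrays.

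A single exposure was followed by higher signal of 10 of the 29 tested genes, and none was called lower. The increases ran from 1.14-fold to 1.95-fold and covered the Cyp6, Cyp9 and Cyp309 families: Cyp6d5, Cyp6a2, Cyp6w1, Cyp6a8, Cyp9b2, Cyp309a1, Cyp6a21, Cyp309a2, Cyp6g1 and Cyp9b1. Across all 9317 probe sets tested, 239 (2.57%) were called higher and 173 (1.86%) lower in the same comparison, against 34.5% higher among the P450 genes. A gene was called where limma's two-sided moderated test, fitted to all 18 arrays, gave an adjusted p under 0.05 (Benjamini-Hochberg over all 9317 probe sets). At an unadjusted p under 0.05 the same fit had 12 of the genes higher and 2 lower, together 48.3% of the 29, against 14.9% of all probe sets tested. Folds were above 1 for 23 of the 29 genes (79.3%), against 57.1% of all probe sets tested, and the median log2 fold change was 0.08 against 0.01. In 7 of the 29 genes the naive and single-exposure samples did not overlap, as in 280 (3.01%) of all probe sets tested. In 6 of these the gene was called higher, while in Cyp6t1, which was not called, the single-exposure samples lay below naive.

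The 3 genes with the largest folds are all known from work on insecticides and drugs. Cyp6d5 is induced by caffeine and phenobarbital. Its intensity had a lowest, median and highest value of 846, 1041 and 1142 in naive samples, 1633, 2044 and 2408 after 1 exposure, and 871, 1050.5 and 1114 after 5 exposures. Every single-exposure sample lay above every sample of the other 2 groups, and those 2 groups covered the same range. The means were 1026 ± 102, 2015 ± 313 and 1025 ± 87.6 (SD, n = 6 each). The fold against naive was 1.95 (95% interval 1.72 to 2.22; limma adjusted p = 2.49e-07) after 1 exposure and 1.0 (0.880 to 1.14; adjusted p = 0.999) after 5.

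Cyp6a2 encodes an enzyme that metabolises insecticides and is highly expressed in some DDT-resistant strains. Its intensity was 859, 936 and 1024 (lowest, median, highest) in naive samples, 1560.4, 1723 and 1999 after 1 exposure, and 843, 943 and 1005 after 5. The single-exposure samples stood clear of both other groups, which overlapped throughout. The fold against naive was 1.88 (1.72 to 2.05; limma adjusted p = 1.84e-09) after 1 exposure and 0.995 (0.911 to 1.09; adjusted p = 0.977) after 5. The upper ends of the five-exposure intervals were 1.14-fold for Cyp6d5 and 1.09-fold for Cyp6a2.

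Cyp6w1, which is overexpressed in a DDT-resistant strain, had intensities of 1314, 1602 and 2195 in naive samples, 2827, 2982 and 3259 after 1 exposure, and 1916, 2043 and 2232 after 5. The single-exposure samples lay above all others. The five-exposure samples lay between the other groups in mean and above every naive sample but the highest. It was the only tested P450 gene of the clan called higher after 5 exposures: the fold was 1.82 (1.62 to 2.04; limma adjusted p = 3.27e-07) after 1 exposure and 1.25 (1.11 to 1.41; adjusted p = 0.0175) after 5. The second of these calls was lost without five-exposure replicate 4 (adjusted p = 0.0505) and without the filter on low values (adjusted p = 0.0609).

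Cyp6a8, an enzyme that is induced by caffeine and barbital and is abundant in a DDT-resistant strain, had intensities of 125, 128 and 148 in naive samples, 174, 209 and 249 after 1 exposure, and 122, 127 and 134 after 5. The single-exposure samples did not overlap either other group, and spread over a wider range than those did. The fold against naive was 1.59 (1.43 to 1.77; limma adjusted p = 2.71e-06) after 1 exposure and 0.971 (0.874 to 1.08; adjusted p = 0.85) after 5.

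The 2 Cyp9 genes that rose differed in size and in how firmly they were called. Cyp9b2 had intensities of 560.5, 639.7 and 683 in naive samples, 809.9, 931 and 1068 after 1 exposure, and 578, 601 and 665 after 5, so that the single-exposure samples lay above all others. Its fold was 1.50 (1.37 to 1.65; limma adjusted p = 2.97e-06) after 1 exposure and 0.969 (0.883 to 1.06; adjusted p = 0.811) after 5. The second probe set of Cyp9b2 did not share this: its log2 fold changes were 0.09 (adjusted p = 0.499) after 1 exposure and 0.03 (adjusted p = 0.888) after 5, so the Cyp9b2 call rests on 1 of its 2 probe sets. Cyp9b1 had intensities of 99.5, 107 and 116 in naive samples, 106, 124 and 133 after 1 exposure, and 104, 110.5 and 114 after 5, with overlap between all groups. Its fold of 1.14 (1.06 to 1.23; limma adjusted p = 0.0286) was the smallest called, and the call was lost when any of 7 single arrays was left out (naive replicates 2, 5 and 6 and single-exposure replicates 1, 3, 4 and 5; adjusted p of 0.0571 to 0.0783). It was also lost with median centring (0.052), without the filter on low values (0.0527) and with only the 2 groups in the fit (0.0796).

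Cyp309a1 and Cyp309a2 rose after 1 exposure and stood below naive in mean after 5. Cyp309a1 had intensities of 181, 216 and 271 in naive samples, 271, 315 and 337 after 1 exposure, and 143, 156 and 190.0 after 5. The highest naive and the lowest single-exposure samples met at 271, and the five-exposure samples lay below all single-exposure samples. Only the highest five-exposure sample reached the range of the naive group, above its lowest sample. The fold of Cyp309a1 was 1.42 (1.25 to 1.61; limma adjusted p = 0.00087) after 1 exposure and 0.725 (0.639 to 0.824; adjusted p = 0.00169) after 5, so that this gene passed the test in opposite directions. Cyp309a2 had intensities of 72.8, 95.2 and 104 in naive samples, 101, 113 and 122 after 1 exposure, and 68.7, 79.1 and 86.7 after 5. Its single-exposure samples lay above all five-exposure samples and overlapped the highest naive one. The fold of Cyp309a2 was 1.25 (1.12 to 1.39; limma adjusted p = 0.0115) after 1 exposure and 0.867 (0.779 to 0.965; adjusted p = 0.118) after 5.

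Cyp6a21 and Cyp6g1 had smaller increases. Cyp6a21 had intensities of 86.9, 108 and 114 in naive samples, 122, 133 and 147 after 1 exposure, and 90.9, 111 and 122 after 5. All of its single-exposure samples lay above all naive samples, and they met the five-exposure samples at 122. Its fold was 1.30 (1.17 to 1.44; limma adjusted p = 0.00224) after 1 exposure and 1.06 (0.955 to 1.18; adjusted p = 0.641) after 5. Cyp6g1, whose overexpression gives resistance to DDT and neonicotinoids, had intensities of 571, 756 and 865 in naive samples, 836, 878 and 959 after 1 exposure, and 714, 760.3 and 843 after 5. Its groups overlapped, and naive replicate 5 was the lowest of the 18. The fold of Cyp6g1 was 1.22 (1.10 to 1.35; limma adjusted p = 0.0248) after 1 exposure and 1.05 (0.942 to 1.16; adjusted p = 0.744) after 5. The first of these calls was lost when naive replicate 1 or single-exposure replicate 3 or 6 was left out (adjusted p = 0.0586, 0.059 and 0.0616), without the filter on low values (0.076) and with only the 2 groups in the fit (0.0536).

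**Figure D1:**
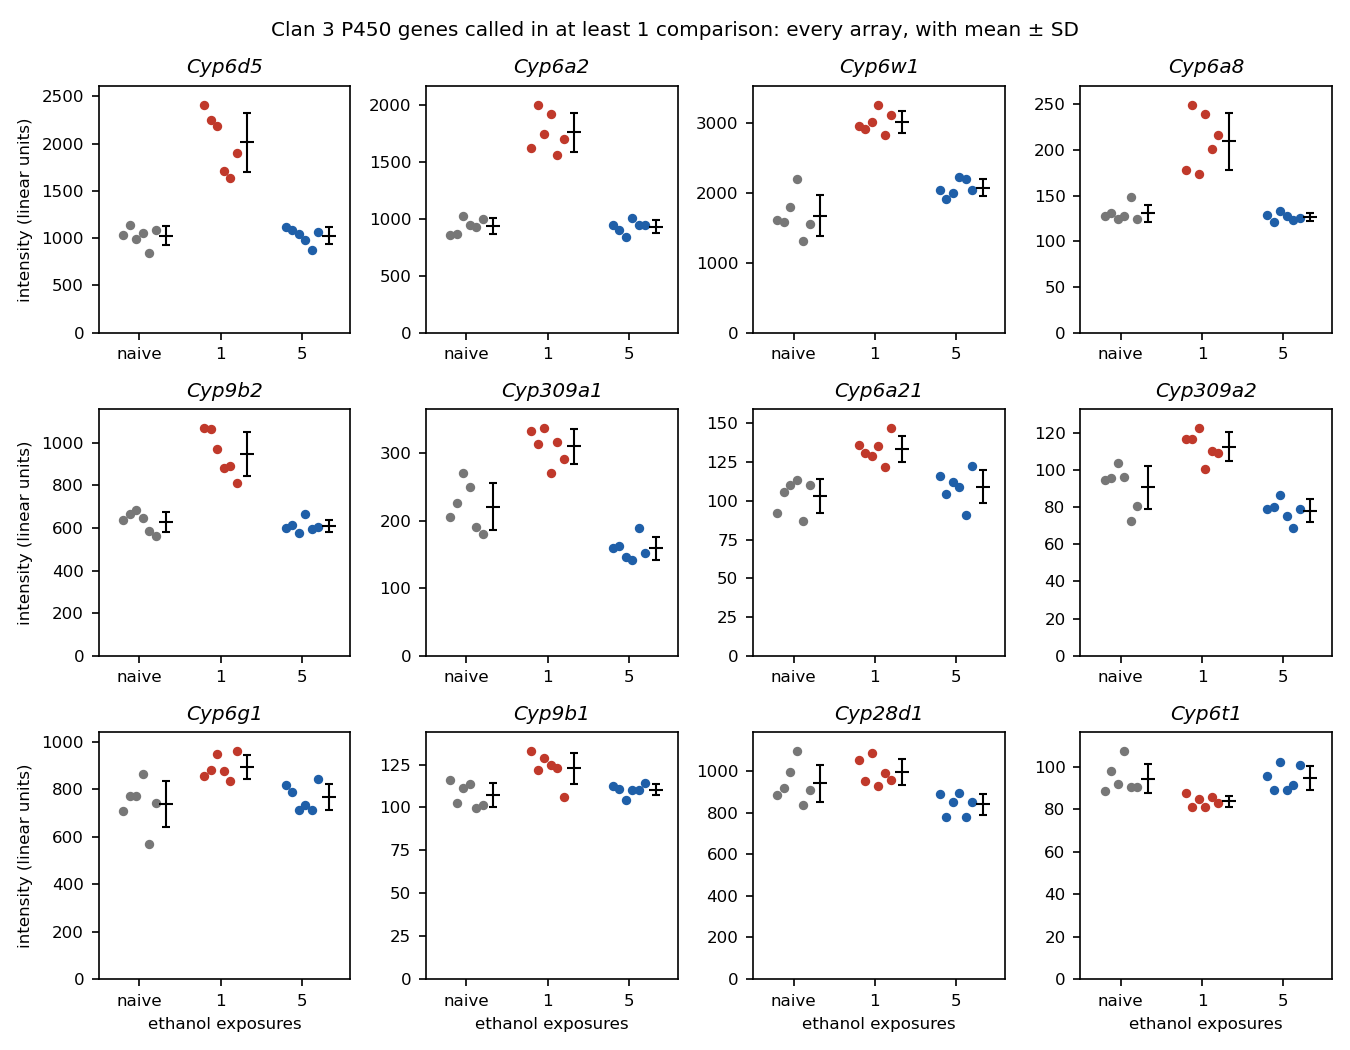
Intensity in linear units (vertical axis, from 0) of the 12 clan 3 P450 genes called in at least 1 comparison, with 1 dot for each array and a bar for the mean ± SD of the 6 arrays beside it; naive samples are grey, samples after 1 exposure red and after 5 exposures blue. In the top row and in Cyp9b2 every red dot lies above every grey and blue dot. Cyp309a1 and Cyp309a2 have their lowest mean after 5 exposures. So do Cyp28d1, Cyp9b2, Cyp6a8, Cyp6a2 and Cyp6d5, by a smaller share of the naive mean. Cyp6t1 has its lowest mean after 1.

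Some samples were the lowest of their group for several of the 10 genes that rose. Naive replicate 5 was the lowest naive sample for 6 of the 10 and naive replicate 6 for 3. Of all 18 arrays, naive replicate 5 also correlated least with its own group. Within the single-exposure group, replicate 5 was the lowest for 5 of the 10. Of the 10 calls, 8 held in each alternative in which the gene was tested, 27 or 28 in number, which include leaving out any 1 of the 18 arrays. The exceptions were Cyp6g1 and Cyp9b1, whose values are given above, and this count uses the represented probe set of Cyp9b2.

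After 5 exposures few of the P450 genes differed from naive. Cyp6w1 was called higher and Cyp309a1 lower, which is 1 gene of 29 (3.45%) in each direction, against 231 (2.48%) higher and 359 (3.85%) lower of all probe sets tested. At an unadjusted p under 0.05 limma had 2 genes higher and 4 lower, together 20.7% of the 29, which is close to the 17.5% of all probe sets tested. The naive and five-exposure samples overlapped in all 29 genes, while 341 (3.66%) of all probe sets tested had none in common. The median log2 fold change was 0.00 against 0.01 over all probe sets tested. The other 8 of the 10 genes that rose after 1 exposure had five-exposure folds from 0.867 to 1.06 and were not called. Both comparisons use the same naive samples.

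The samples after 5 exposures were also compared with those after 1, in the fit that takes its spread from all 3 groups. Here 9 of the 29 genes were called lower after 5 exposures (31.0%) and 1 higher (3.45%), against 444 (4.77%) lower and 348 (3.74%) higher of all probe sets tested. Samples of the 2 groups did not overlap in 9 genes, as in 475 (5.1%) of all probe sets tested. Among these 9 was Cyp6t1, whose samples lay higher after 5 exposures. Of all probe sets 44.3% had a fold above 1, against 8 of the 29 genes (27.6%), and the median log2 fold change was -0.06 for the genes and -0.01 for all. All 9 genes called lower were so called in each alternative in which they were tested, the second probe set of Cyp9b2 aside. In the same comparison 5 of the 8 muscle markers were called lower, and of the 12 fat body markers 3 were called higher and 1 lower, whose part in these results was not tested.

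This comparison and that of 1 exposure with naive use the same single-exposure samples, so a gene that was high in them in one tends to be lower in the other, and each gene's own values are given here. The 5-to-1 folds of Cyp6d5 and Cyp309a1 were both 0.512 (0.450 to 0.583; limma adjusted p = 1.88e-07, and 0.451 to 0.582; adjusted p = 1.6e-07). Cyp6a2 had a fold of 0.530 (0.486 to 0.579; limma adjusted p = 1.26e-09). For Cyp6w1 it was 0.687 (0.611 to 0.773; limma adjusted p = 9.81e-05), although this gene had remained above naive. Folds of Cyp6a8 (0.609), Cyp9b2 (0.645), Cyp309a2 (0.694) and Cyp6a21 (0.817) had adjusted p-values from 7.22e-07 to 0.0117. The second probe set of Cyp9b2 was not called here either (log2 fold change -0.07, adjusted p = 0.629). Cyp6g1 and Cyp9b1 lay just outside the threshold, with 5-to-1 folds of 0.859 (0.773 to 0.955; limma adjusted p = 0.0709) and 0.900 (0.836 to 0.968; adjusted p = 0.0719).

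Cyp28d1 and Cyp6t1 were called between the 2 ethanol groups without having been called against naive. Cyp28d1, which has been linked to the handling of nicotine, had intensities of 839, 914 and 1094 in naive samples, 927, 974 and 1086 after 1 exposure, and 779.8, 851 and 894 after 5. Its 2 ethanol groups did not overlap, and the naive samples spanned the gap between them. The 5-to-1 fold of Cyp28d1 was 0.846 (0.777 to 0.921; limma adjusted p = 0.0107), with folds against naive of 1.06 (0.973 to 1.15; adjusted p = 0.572) after 1 exposure and 0.896 (0.823 to 0.976; adjusted p = 0.137) after 5.

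Cyp6t1 was the only one of the tested P450 genes of the clan called higher after 5 exposures than after 1. Its intensities were 88.9, 91.3 and 107 in naive samples, 80.9, 84 and 87.6 after 1 exposure, and 89.2, 93.6 and 102 after 5. The single-exposure samples lay below every sample of both other groups, but all values were close to the filter on low values. The 5-to-1 fold of Cyp6t1 was 1.13 (1.05 to 1.21; limma adjusted p = 0.0266), and it was lost when any of 5 single arrays was left out (single-exposure replicates 2, 4 and 6 and five-exposure replicates 3 and 6; adjusted p of 0.0525 to 0.0772). Against naive the fold after 1 exposure was 0.889 (0.829 to 0.954), just outside the threshold with an adjusted p of 0.0519.

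**Figure D2:**
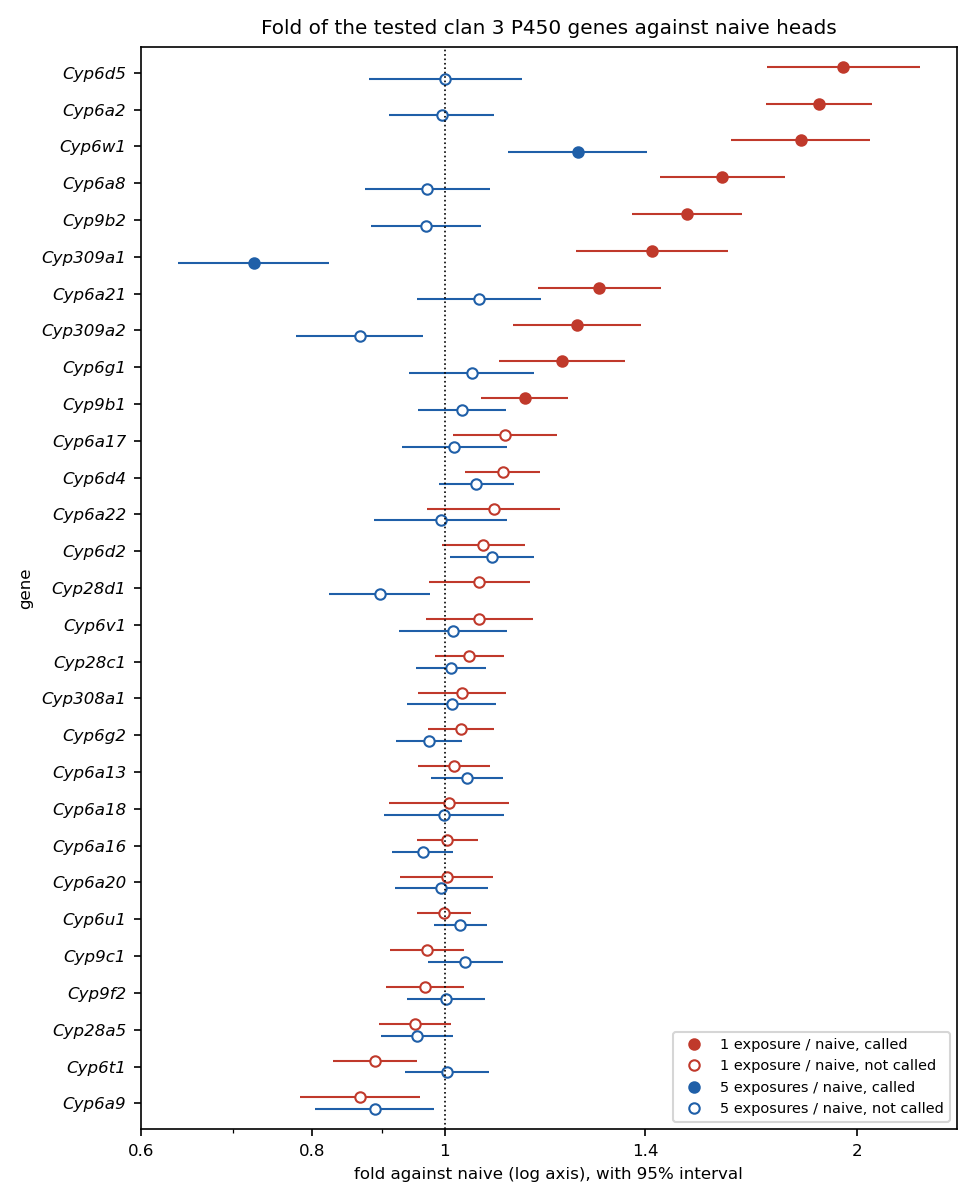
Fold against naive (horizontal log axis) of the 29 tested clan 3 P450 genes after 1 exposure (red) and after 5 exposures (blue), with 95% intervals; filled circles passed the adjusted p threshold of 0.05 and open ones did not. The 10 filled red circles run from 1.14-fold to 1.95-fold, while the filled blue circles are Cyp6w1 at 1.25 and Cyp309a1 at 0.725.

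The other 17 tested genes were not called in any comparison. Their folds lay between 0.867 and 1.11 after 1 exposure, with no 95% interval reaching beyond 0.784 or 1.21, and between 0.889 and 1.08 after 5, with intervals within 0.804 to 1.16. Their 5-to-1 folds lay between 0.915 and 1.07. Cyp9f2, among the 5 genes of highest mean signal, was one of these 17. Its intensities were 1045, 1068 and 1149 in naive samples, 993, 1056 and 1079 after 1 exposure, and 1023, 1053 and 1256 after 5, and all groups overlapped. The Cyp9f2 fold was 0.967 (0.906 to 1.03; limma adjusted p = 0.707) after 1 exposure and 1.0 (0.938 to 1.07; adjusted p = 0.99) after 5, and its second probe set was not called either.

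Some of these genes have roles that were assigned in flies by genetics. Cyp6a20, which affects aggression between males, had a fold of 1.0 (0.927 to 1.09; limma adjusted p = 0.985) after 1 exposure. Cyp6a17, which affects temperature preference, had a fold of 1.11 (1.01 to 1.21; adjusted p = 0.246). Cyp6g2, which gives insecticide resistance when overexpressed, had a fold of 1.03 (0.972 to 1.09; adjusted p = 0.729). Cyp6d2, which affects tolerance of camptothecin, had a fold of 1.08 (1.01 to 1.16; adjusted p = 0.214) after 5 exposures.

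Cyp6d4 and Cyp6a9 came nearest to a call among the 17. Cyp6d4 had intensities of 138, 146 and 152 in naive samples, 147, 161 and 169.9 after 1 exposure, and 139.5, 154 and 167 after 5, with overlapping groups. Its fold after 1 exposure was 1.10 (1.03 to 1.17; limma adjusted p = 0.0776). Cyp6a9, known as inducible by caffeine, had intensities of 116, 138 and 154 in naive samples, 104, 117 and 130.0 after 1 exposure, and 107, 123 and 131 after 5, again with overlap. Its folds against naive were 0.867 (0.784 to 0.959; limma adjusted p = 0.112) and 0.889 (0.804 to 0.983; adjusted p = 0.185), on the other side of 1 from those of Cyp6a2 and Cyp6a8 after 1 exposure.

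Many P450 genes lie next to a gene of the same family. In the protein-coding gene order of RefSeq's Release 6 plus ISO1 MT assembly, 20 of the 37 genes fell into 6 runs of direct neighbours. Both genes of the pair Cyp309a1 and Cyp309a2 rose after 1 exposure, and so did both of the pair Cyp9b1 and Cyp9b2. As given above, the Cyp9b1 call was lost under several alternatives and the second probe set of Cyp9b2 was not called. In the run of Cyp6g1, Cyp6g2 and Cyp6t3, Cyp6g1 was called, Cyp6g2 was not and Cyp6t3 was not tested. The longest run holds 9 genes, in the order Cyp6a22, Cyp6a17, Cyp6a23, Cyp6a19, Cyp6a9, Cyp6a20, Cyp6a21, Cyp6a8 and Cyp317a1. Of its 6 tested genes, 2 were called higher, and these were the adjacent Cyp6a21 (1.30-fold) and Cyp6a8 (1.59-fold), while the next gene on one side, Cyp6a20, had a fold of 1.0. No gene was called after 1 exposure in the pairs Cyp28d2 with Cyp28d1 and Cyp6a14 with Cyp6a13. The genes with the 3 largest folds, Cyp6d5, Cyp6a2 and Cyp6w1, lie in none of these runs. Neighbours of one family can be similar in sequence, and whether their probe sets share transcripts was not assessed here.

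**Figure D3:**
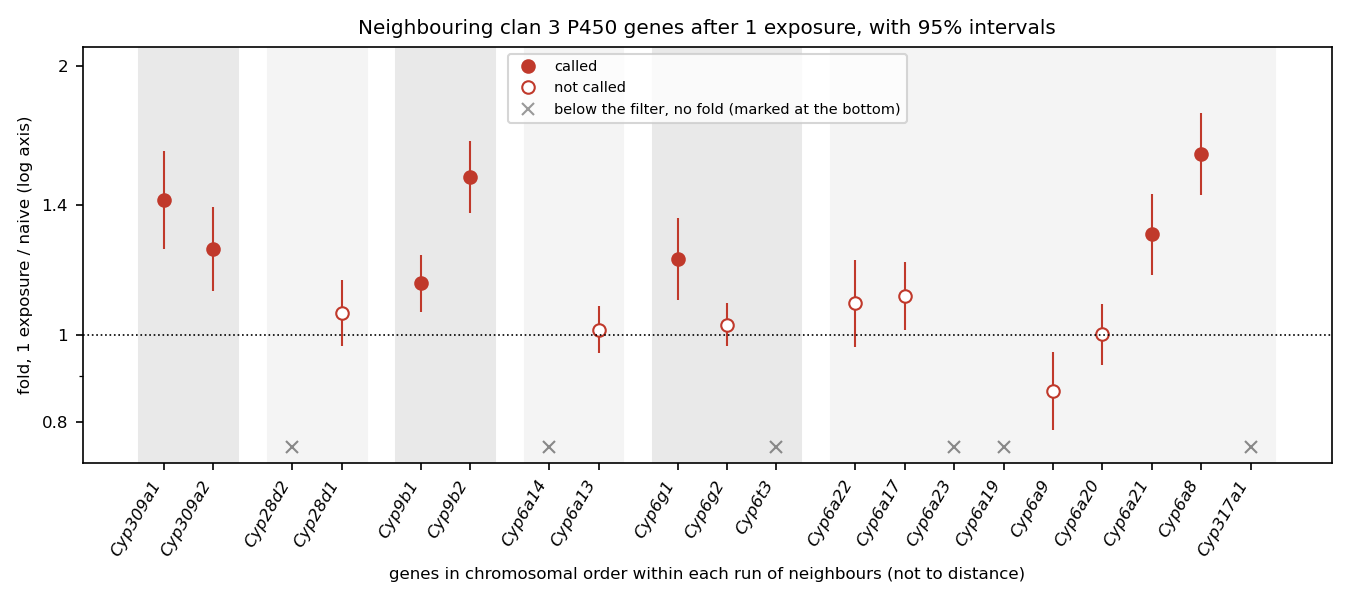
Fold of 1 exposure over naive (vertical log axis, with 95% intervals) for the 20 clan 3 P450 genes that lie in 6 runs of neighbours, each run on its own shaded band and in chromosomal order, not to distance. Filled circles passed the adjusted p threshold of 0.05, open ones did not, and crosses at the bottom mark genes below the filter on low values, which have no fold; in the run of 9 genes the filled circles are the adjacent Cyp6a21 and Cyp6a8.

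Among 6 tested electron carriers, 1 was called in the comparison of 1 exposure with naive and 2 in each of the others. Cyt-b5, the microsomal electron donor to P450s, was called higher after 1 exposure (1 of 6 genes, against 2.57% of all probe sets tested), with a fold of 1.24 (1.15 to 1.33; limma adjusted p = 0.000563). It was lower after 5 exposures than after 1 (fold 0.888; adjusted p = 0.0417) and was not called against naive then (fold 1.10; adjusted p = 0.151). The listed P450 reductase gene, Cpr, was not analysed here. Also after 5 exposures, CG3566 was called higher than naive (1.19-fold; adjusted p = 0.0129) and Fdx2, a mitochondrial ferredoxin, lower (0.913-fold; adjusted p = 0.0282). Median log2 fold changes of the 6 were 0.03, 0.09 and 0.01 after 1 exposure, after 5 and for 5 over 1, against 0.01, 0.01 and -0.01 over all probe sets tested.

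Of 11 tested regulators of detoxification genes, 1 was called after 1 exposure and none after 5 exposures against naive. This was Hnf4, a nuclear receptor of lipid metabolism, with a fold of 0.885 (0.831 to 0.942; limma adjusted p = 0.0191) after 1 exposure and a 5-to-1 fold of 1.13 (adjusted p = 0.014). The mRNA of cnc had a fold of 1.0 (0.931 to 1.08; adjusted p = 0.987) after 1 exposure, and maf-S, which encodes its dimer partner, one of 1.05 (adjusted p = 0.647). Keap1 and the nuclear receptor gene Hr96 lay below the filter. The median log2 fold change of the 11 was 0.00 in each comparison. GstD1, a glutathione S-transferase gene that responds to CncC, rose 1.51-fold (1.42 to 1.60; limma adjusted p = 2.77e-09) after 1 exposure. After 5 exposures GstD1 had a fold of 0.928 (0.874 to 0.986; adjusted p = 0.156) against naive and of 0.614 (0.578 to 0.652; adjusted p = 2.19e-10) against 1 exposure.

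The other P450 clans give a comparison of the same kind. Of the 32 clan 4 genes, 18 were tested. After 1 exposure 3 of the 18 were called higher and 2 lower, against 2.57% higher and 1.86% lower of all probe sets tested. After 5 exposures 1 was called higher and 1 lower than naive, against 2.48% and 3.85% of all probe sets tested. Between 5 exposures and 1, 2 were called higher and 2 lower, against 3.74% and 4.77% of all probe sets tested. The median log2 fold change after 1 exposure was 0.01 against 0.08 for clan 3, and the difference between the clans was not tested. Cyp4e2 (1.68-fold) and Cyp4p1 (1.61-fold; limma adjusted p = 3.83e-07 for both) rose after 1 exposure and were lower after 5 exposures than after 1 (0.628-fold and 0.673-fold). Cyp4ac1 ran the other way, with a fold of 0.664 (adjusted p = 0.000668) after 1 exposure and 1.34 (adjusted p = 0.0112) after 5. Cyp313a1 was called lower than naive after 1 exposure (0.772-fold, limma adjusted p = 0.00449) and after 5 (0.790-fold, adjusted p = 0.00793). Among 8 tested mitochondrial P450 genes none was called after 1 exposure, and Cyp12b2 was called higher after 5 (1.27-fold; adjusted p = 0.000128). Neither of the 2 tested clan 2 genes was called.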

How the data were processed

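Whole-head RNA of 18 samples (6 µg each, about 60 heads) was measured on one-colour Affymetrix arrays. The deposited table held 1 linear intensity per probe set and array, already summarised by the authors; no source used here names the software, and there are no detection calls. Of 14010 probe sets, 44 were controls; the platform annotation gave 12444 a single symbol, 327 several and 1239 none. The authors' deposited values were floored at their 20th percentile over all arrays (57.8) and log2 was taken. Controls and the lowest 1/3 by mean log2 value were left out, which left 9317 probe sets. One linear model of the 3 groups was fitted with limma 3.58.1 in R 4.3.3 (lmFit, eBayes), with Benjamini-Hochberg adjustment over all probe sets. Folds are 2 to the power of the fitted log2 difference of the authors' values. The fit was also run on data simulated with independent normal noise and added changes. Such data hold no batch, outlying array or correlation between samples, so that run does not bear on these. Figures were drawn with matplotlib 3.10.9.

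The labels call the samples biological replicates without saying whether flies came from separate cultures, so p-values measure the spread between these samples. No deposited columns were identical: the smallest SD of log2 differences between arrays was 0.110. The number of arrays limits the precision.

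The members and gene lists were chosen with earlier results of these data known. Each member called in any comparison, the 5 members of highest mean signal, those left out by the filter and those with an adjusted p of 0.05 to 0.1 were to be named with values, and from each list at most 4 called genes. Alternatives were the floor at the 5th percentile, a pseudocount of 16 in place of the floor, no filter or one at the median, median centring, quantile normalization, array weights, a trended and robust prior, fitting 2 groups only, the replicate number as a block, the second probe set, and leaving out each array.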

Additional observations from a re-analysis of the deposited data

Results flagged for a closer look

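Among the represented probe sets, 111 groups of 6 samples were examined for a sample that stands apart from the rest of its group (Dixon's test of its gap over the group's range), and 4 had one; chance gives about 1 group in 20. These were Cyp6a8 in naive replicate 5 (intensity 148), Cyp6a16 in naive replicate 5 (283), Cyp9c1 in naive replicate 4 (162) and Cyp9f2 in five-exposure replicate 1 (1256). In Cyp6a8 this naive sample is the highest of its group and still lies below all single-exposure samples.

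The change from naive differed between the 5-exposure and the 1-exposure group in 10 genes, by limma's test of the difference itself. These are the calls already given for 5 exposures against 1, since naive cancels from the difference. On the log2 scale, 5 exposures minus 1, it was -0.97 for Cyp309a1, -0.965 for Cyp6d5, -0.91 for Cyp6a2, -0.71 for Cyp6a8, -0.63 for Cyp9b2, -0.54 for Cyp6w1, -0.53 for Cyp309a2, -0.29 for Cyp6a21, -0.24 for Cyp28d1 and 0.17 for Cyp6t1.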

How the results depend on the processing

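No called fold of a clan 3 gene changed direction under any alternative run. Genes called higher after 1 exposure numbered 7 to 11 (10 as reported), and those called lower after 5 exposures than after 1 numbered 7 to 10 (9 as reported); the count of 7 came with the filter at the median, which tested fewer genes. Smaller counts moved more. Genes called lower after 1 exposure went from 0 to 1 with quantile normalization, median centring or array weights, and from 0 to 2 when single arrays were left out. Genes called higher after 5 exposures than naive went from 1 to 0 without the filter and ranged from 0 to 1 over left-out arrays. Genes called lower than naive after 5 exposures went from 1 to 3 with array weights and to 2 with the replicate number as a block, and ranged from 1 to 2 over left-out arrays. Genes called higher after 5 exposures than after 1 went from 1 to 0 with the filter at the median or the replicate block, and ranged from 0 to 1. Over all probe sets, those called higher after 5 exposures than naive ranged over left-out arrays from 144 to 268 (231 as reported), with 144 without five-exposure replicate 3. Apart from fewer genes tested, the cause of these shifts was not tested. Deviations of same-numbered samples correlated by over 0.1 in 8 of 18 pairs (range -0.24 to 0.52), among them replicate 6 in each comparison. Between the 5-exposure and 1-exposure groups, replicates 2, 4, 5 and 6 correlated at 0.39, 0.52, 0.26 and 0.33. Replicates 1 and 3 stood at -0.05 and 0.08 there. The labels name no batch and not every pair correlated, so the reported fit did not pair the samples. Whether same-numbered samples shared a batch was not tested. With the replicate block the call of Cyp6t1 for 5 over 1 was lost (adjusted p = 0.0507), those of Cyp309a2 for 5 against naive (0.0253) and Cyp6g1 for 5 over 1 (0.0389) were gained, and 11 genes were called higher after 1 exposure and 10 lower after 5 than after 1. Calls gained under some alternatives were those of Cyp6t1, Cyp6a9 and Cyp6d4 after 1 exposure, Cyp309a2 and Cyp6a9 after 5, and Cyp6g1 and Cyp9b1 for 5 over 1. How far genes near the filter, such as Cyp309a2 and Cyp6t1, stood above background is not known, since there are no detection calls.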
